A study of Mus musculus with 24 samples.

Results

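The 10 genes described here belong to the BCL2 family or act with it at the mitochondrion. They were taken by gene symbol from the 15667 genes listed for uninjected and the 15327 listed for injected mouse hearts, after the Ensembl identifiers of both tables had been paired with GENCODE symbols. All 10 were listed in both tables and all 10 passed the filter on low values. The study asked how loss of Xinβ, encoded by *Xirp2* and located at the junctions between heart muscle cells, changes gene expression in the young heart, and how an active form of the transcriptional co-activator YAP changes it. RNA from ventricular tissue, labelled as heart apex, was sequenced at postnatal day 7.5 in 24 libraries, 4 in each of 6 groups. The 2 uninjected groups were wild-type (WT) and XinBeta knockout (*Xinβ* KO) hearts. The other 4 groups were WT and *Xinβ* KO hearts given AAV9 at postnatal day 1, carrying GFP (WT/GFP and KO/GFP) or YAP with the S127A change, which removes an inhibitory phosphorylation site (WT/aYAP and KO/aYAP). The knockout was germline and so present in every cell, whereas both vectors were driven by a cardiac troponin T promoter, which restricts expression to cardiomyocytes. WT hearts came from littermates, and the sources used here do not say whether a library was made from 1 heart.

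Proteins of the BCL2 family decide whether the outer mitochondrial membrane is opened during apoptosis. Guardians such as BCL2, BCL-XL and MCL1 hold the pore formers BAX and BAK in check, and BH3-only proteins such as PUMA, BIM, BID and BAD bind the guardians or the pore formers and release that block. BNIP3 carries a BH3-like motif and is best known in the heart as a mitochondrial outer membrane receptor for mitophagy that is induced by hypoxia. Much of the regulation of these proteins lies in cleavage, phosphorylation and turnover, which RNA levels do not show.

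Sequencing depth on genes was 20490875 to 31154155 reads per library for uninjected hearts and 15015038 to 19444404 reads for injected hearts. Values are CPM, the reads of a gene relative to all reads of its library, as scaled by the authors, separately for uninjected and injected hearts, so levels are compared within each table only. *Xirp2* was at 0 to 0.972 CPM in the 12 knockout libraries and at 56.0 to 168 CPM in the 12 WT libraries. Differences are log2 fold changes of CPM + 1 from limma with Benjamini-Hochberg adjustment over all 15598 or 14597 tested genes, and a gene is called at an adjusted p-value under 0.05. The 8 cardiomyocyte markers were all listed in every group. They summed to 59236 to 65954 CPM in uninjected WT and 65592 to 83812 in KO hearts, and to 50477 to 64850 in WT/GFP, 58288 to 68506 in KO/GFP and 56123 to 60579 CPM in KO/aYAP hearts. In limma 2 of the 8 were higher in KO, 2 in KO/GFP and 2 lower in KO/aYAP against KO/GFP. Markers of other cells also moved with the knockout and with active YAP in KO hearts. The 6 macrophage markers summed to 26.4 to 45.3 CPM in KO against 68.3 to 85.4 CPM in WT hearts, and to 26.7 to 72.8 CPM in KO/GFP against 82.5 to 124 CPM in WT/GFP and 84.0 to 106 CPM in KO/aYAP hearts. The 6 fibroblast markers summed to 1142 to 1567 against 2132 to 2273 CPM and to 1169 to 1664 against 2026 to 2373 and 2043 to 2624 CPM in the same groups. The 5 listed of 6 neutrophil markers (without *Ly6g*) summed to 48.0 to 106 against 4.88 to 10.4 CPM and to 31.2 to 59.0 against 5.76 to 11.4 and 2.09 to 14.9 CPM. The 6 endothelial markers summed to 1046 to 1347 against 1461 to 1604 CPM and to 1175 to 1230 against 1350 to 1503 and 1371 to 1411 CPM. Such sums follow the most abundant markers. In limma 3 of 6 endothelial markers were lower in KO/GFP, and 2 were higher and 1 lower with active YAP in KO hearts. *Emcn* averaged 52.7 CPM in KO/GFP against 41.6 in WT/GFP and 38.4 in KO/aYAP. Of 6 fibroblast markers 4 were lower in KO/GFP, while *Pdgfra* and *Tcf21* averaged 51.7 and 25.1 CPM against 50.8 and 25.4 in WT/GFP. Of 6 erythroid markers, 5 were lower in KO/GFP than in WT/GFP hearts and 0 were called between KO/aYAP and KO/GFP. The 6 smooth muscle and pericyte markers summed to 1241 to 2054 CPM in KO against 1449 to 1930 CPM in WT hearts, and to 1231 to 1548 CPM in KO/GFP against 1695 to 1873 in WT/GFP and 1859 to 2365 CPM in KO/aYAP, where 3 of 6 were called higher than in KO/GFP. Of 6 lymphocyte markers 0 were listed in uninjected hearts. The 2 listed in injected hearts were too low to be tested, at 0 to 0.351 CPM in KO/GFP, 1.45 to 2.07 in WT/GFP and 1.18 to 2.63 CPM in KO/aYAP. The part of these cells in the results below was not tested, and in bulk RNA fewer cells of a type and less RNA per cell cannot be told apart.

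The 250 bases before the RefSeq transcription start are shown for the 4 members that were called in the comparison of active YAP with GFP in *Xinβ* KO hearts (GRCm38.p6, each written 5′ to 3′ on the strand of its gene). Capitals mark every match, on either strand, to hypoxia response cores (ACGTG or GCGTG), a FOXO site (GTAAACA), a TEAD site (GGAATG), an E2F site (TTTNGCGC) and a palindromic glucocorticoid receptor site. The windows lie at chr7:138909507-138909756 on the minus strand for *Bnip3*, at chr3:95658471-95658720 on the plus strand for *Mcl1*, at chr2:128125788-128126037 on the plus strand for the first of the *Bcl2l11* starts, and at chr1:106714291-106714540 on the minus strand for *Bcl2*.
Bnip3: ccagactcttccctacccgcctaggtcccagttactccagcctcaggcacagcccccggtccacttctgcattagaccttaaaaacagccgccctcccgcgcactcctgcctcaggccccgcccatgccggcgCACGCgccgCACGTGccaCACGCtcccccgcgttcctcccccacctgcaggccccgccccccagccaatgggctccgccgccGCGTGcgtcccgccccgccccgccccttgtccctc
Mcl1: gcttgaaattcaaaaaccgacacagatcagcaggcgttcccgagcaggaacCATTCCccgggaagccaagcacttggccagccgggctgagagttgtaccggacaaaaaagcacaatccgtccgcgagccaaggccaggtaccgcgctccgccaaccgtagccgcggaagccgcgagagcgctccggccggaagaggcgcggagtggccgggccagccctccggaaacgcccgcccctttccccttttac
Bcl2l11: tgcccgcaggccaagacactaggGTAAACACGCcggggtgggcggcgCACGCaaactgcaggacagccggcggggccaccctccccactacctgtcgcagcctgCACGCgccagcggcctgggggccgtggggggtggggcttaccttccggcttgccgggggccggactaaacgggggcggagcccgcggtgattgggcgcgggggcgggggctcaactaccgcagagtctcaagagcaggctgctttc
Bcl2: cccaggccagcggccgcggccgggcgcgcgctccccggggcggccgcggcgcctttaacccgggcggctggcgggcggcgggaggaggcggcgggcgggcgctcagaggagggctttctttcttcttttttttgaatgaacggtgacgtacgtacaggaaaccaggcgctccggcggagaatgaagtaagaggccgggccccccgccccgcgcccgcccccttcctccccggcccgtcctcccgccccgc

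The *Bnip3* window held 5 matches to a hypoxia response core. ACGTG was found at 108 and 107 bases before the start, as the overlapping strands of 1 palindrome, and GCGTG began 117, 99 and 35 bases before it. At least 1 ACGTG was in 16.6% and at least 1 GCGTG in 28.2% of the 32851 windows of all RefSeq starts. The share of windows with several matches was not counted. The first *Bbc3* window held 4 GCGTG matches and the first *Bad* window 3. Neither gene was called with active YAP in KO hearts. The *Bcl2l11* window shown held GTAAACA near its far end, a match that shares bases with a GCGTG match and that 3.17% of all windows have. The window of the other *Bcl2l11* start held none of the 6 patterns. The *Mcl1* window held a single match, to GGAATG on the other strand (12.6% of all windows). The *Bcl2* window held none of the 6 patterns. Over the 16 windows of the 10 members, ACGTG was in 3 windows, GCGTG in 8, GTAAACA in 2, GGAATG in 2, TTTNGCGC in 1 (1.1% of all windows) and the glucocorticoid receptor pattern in 0 (0.387% of all windows). These are matches of letters, not sites shown to be bound.

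Per kilobase of exon, *Mcl1* had the highest mean level of the 10 genes in all 6 groups and *Bcl2* or *Bid* the lowest. In WT/GFP hearts the level of *Mcl1* was 57.5 ± 3.28 CPM per kb (SD, n = 4), followed by *Bnip3* at 28.5 ± 0.859 and *Bax* at 23.7 ± 5.15, whose ranges overlapped each other. *Bak1* came next at 11.8 ± 1.57 CPM per kb, apart from its neighbours on both sides. *Bad* (7.49 ± 0.948), *Bcl2l1* (5.51 ± 1.47), *Bcl2l11* (3.59 ± 0.723) and *Bbc3* (3.0 ± 0.348 CPM per kb) followed, each overlapping the next. *Bid* (2.45 ± 0.264) and *Bcl2* (2.40 ± 0.147 CPM per kb) overlapped each other and lay below the rest. In KO/GFP hearts *Bnip3* stood at 58.7 ± 15.0 CPM per kb and its range reached into that of *Mcl1* (80.3 ± 7.54 CPM per kb). The length is the union of annotated exons, so a gene with long exons that the heart does not use is understated. In uninjected WT hearts the order was *Mcl1* (44.9 ± 3.91), *Bax* (15.6 ± 1.64), *Bak1* (15.5 ± 1.77) and *Bnip3* (10.3 ± 1.3 CPM per kb), with *Bax* and *Bak1* overlapping. *Bid*, the gene with the fewest reads in uninjected hearts, had 23 to 59 reads per library there. In injected hearts *Bid* had 107 to 165 and *Bbc3* 84 to 206 reads. *Mcl1* had between 2909 and 6322 reads in the 24 libraries.

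**Figure D1:**
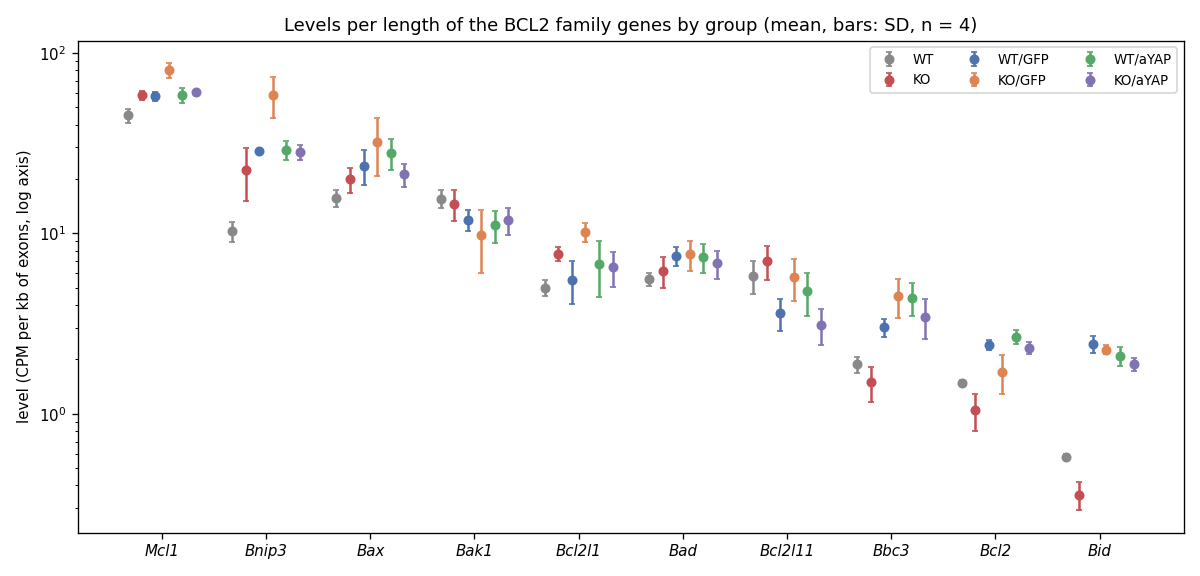
Mean level of each gene in CPM per kilobase of exon (log axis) in the 6 groups, with bars for the SD over 4 libraries. Mcl1 is highest in every group (44.9 in WT to 80.3 in KO/GFP) and Bcl2 and Bid are at the bottom.

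In uninjected hearts, 2 of the 10 genes were called between *Xinβ* KO and WT, both higher in KO, against 6.69% of all tested genes (1044 of 15598) called in either direction. These were *Bcl2l1* and *Bnip3*. The groups did not overlap for these and for *Mcl1*, *Bcl2* and *Bid*, 5 of 10, against 16.4% of all genes. In hearts with the GFP vector, 4 of the 10 were called, *Bcl2l1*, *Mcl1* and *Bnip3* higher and *Bcl2* lower in KO/GFP than in WT/GFP, against 13.7% of all genes (1993 of 14597), and the same 4 had groups that did not overlap, against 15.3%. With active YAP in KO hearts, 4 of the 10 were called against KO/GFP, *Mcl1*, *Bcl2l11* and *Bnip3* lower and *Bcl2* higher, against 14.8% of all genes (2156 of 14597). The groups did not overlap for *Bcl2l1*, *Mcl1*, *Bid* and *Bnip3*, each lower with active YAP, against 17.5% of all genes. The 2 injected comparisons share the KO/GFP libraries. The median log2 fold change of the 10 genes was 0.19, 0.43 and -0.37 in these comparisons, and that of all tested genes was 0.00, -0.01 and 0.01. With CPM on plain totals in place of the authors' scaling, the median of all genes moved to -0.12, -0.11 and 0.13, and the genes called higher and lower went from 504 and 540 to 353 and 1241, from 939 and 1054 to 590 and 1759, and from 1146 and 1010 to 2156 and 591.

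**Figure D2:**
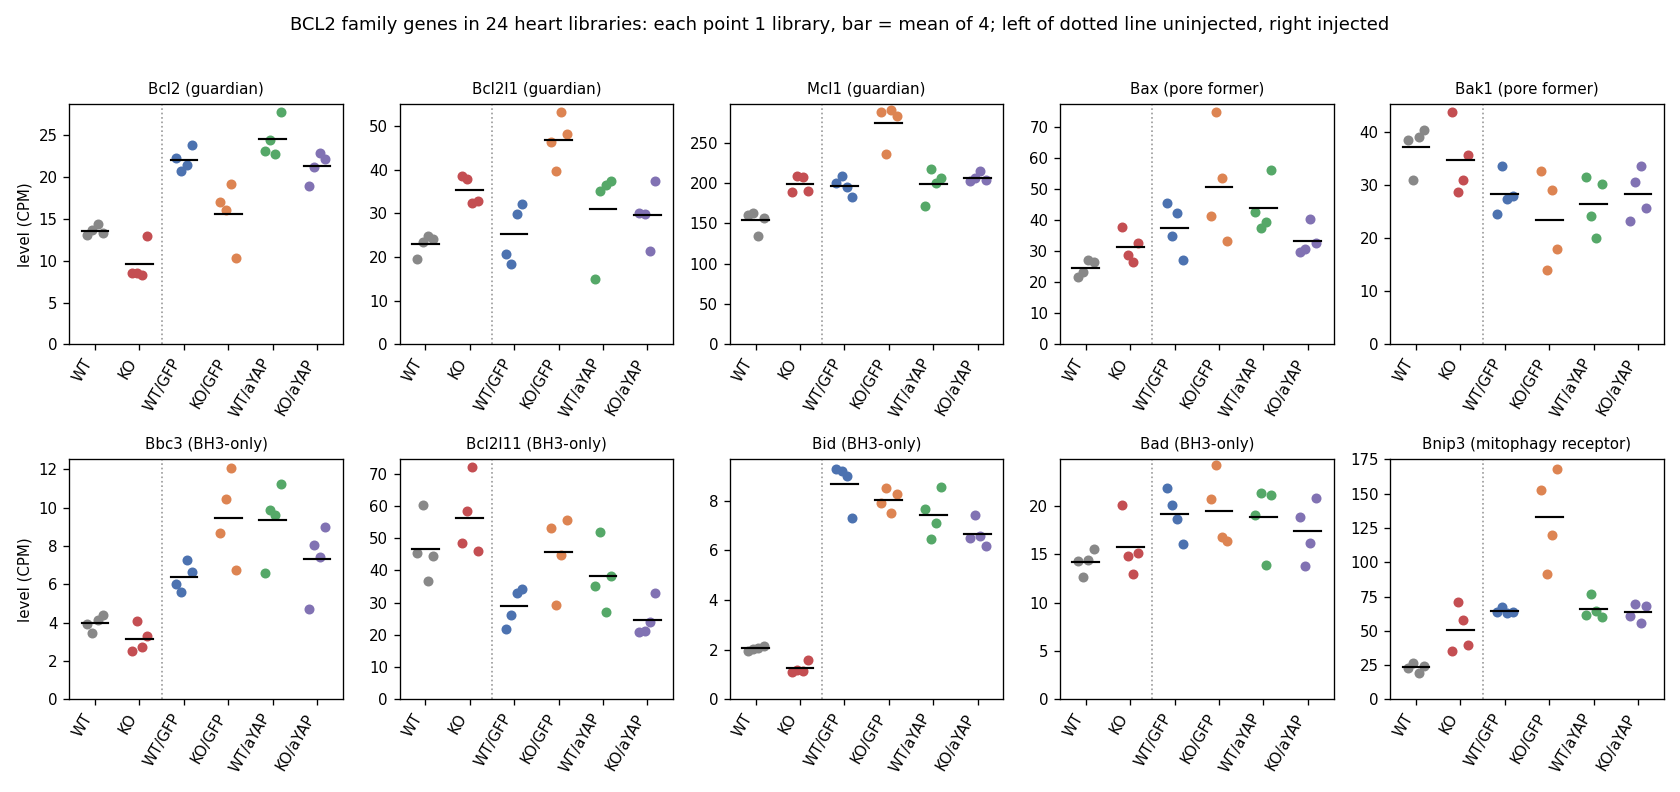
Level in CPM of each of the 10 genes in the 24 libraries, 1 point per library and a bar at the mean of 4, with uninjected groups left of the dotted line and injected groups right of it. For Bnip3 and Mcl1 all 4 KO/GFP libraries stand above every WT/GFP and every KO/aYAP library, and Bnip3 spans 56.0 to 69.3 CPM in KO/aYAP against 63.2 to 67.5 CPM in WT/GFP.

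*Bcl2* (ENSMUSG00000057329, chromosome 1 from 106538178 to 106714274) encodes the founding guardian of the family. Its level was 13.0, 13.6, 14.4 and 13.3 CPM in replicates 1 to 4 of uninjected WT hearts and 8.50, 8.56, 8.24 and 12.9 CPM in those of KO hearts. The 3 low KO libraries were far below every WT library and the fourth was just below them, and the groups did not overlap. The difference was -0.48 (SE 0.148, adjusted p = 0.087 in limma). Without KO replicate 4 it was -0.62, with an adjusted p of 0.0046. In injected hearts the level was 22.2, 20.6, 21.4 and 23.8 CPM in WT/GFP and 16.95, 16.02, 19.2 and 10.3 CPM in KO/GFP. The groups were apart, with replicate 4 of KO/GFP lowest of all, and the difference was -0.50 (SE 0.144, adjusted p = 0.0285). The call was lost without WT/GFP replicate 1 (adjusted p = 0.0629), WT/GFP replicate 4 (0.0742) or KO/GFP replicate 4, where the difference was -0.33 with an adjusted p of 0.0719, and in the fit of the 8 libraries compared (0.12). In KO/aYAP hearts the level was 18.9, 21.2, 22.8 and 22.1 CPM. The lowest of these was just under the highest KO/GFP library. The difference from KO/GFP was 0.45 (adjusted p = 0.0438), a call that was not made by edgeR (adjusted p = 0.0567), with the Y-linked gene *Ddx3y* as a covariate for sex (0.0598) or in the fit of the 8 libraries compared (0.144), and that was lost in 6 of 8 fits that left out 1 library. Those 6 were without KO/GFP replicate 1 or 4 or any 1 of the 4 KO/aYAP libraries, with adjusted p-values of 0.0526 to 0.108 and a difference of 0.28 without KO/GFP replicate 4.

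Markers of dividing cells are set beside *Bcl2* here. The 6 cycling cell markers (*Mki67*, *Top2a*, *Ccnb1*, *Cdk1*, *Aurkb* and *Birc5*) summed to 67.9, 98.0, 49.4 and 463 CPM in the 4 uninjected KO hearts and to 350.4 to 469 CPM in WT hearts. KO replicate 4, the library with *Bcl2* near WT, was thus also the one with WT-like cycling markers. It was lowest in *Ddx3y* as well, at 3.68 CPM against 21.7, 46.0 and 56.2 CPM in the other KO and 39.5 to 49.6 CPM in the WT hearts. With *Ddx3y* as a covariate, *Bcl2* was called in uninjected hearts (-0.65, adjusted p = 0.00849). *Ddx3y* varied little among the WT hearts, so this covariate rests mostly on the KO libraries. That fit is thus not independent of the one without KO replicate 4. In KO/GFP hearts these markers summed to 118, 292, 219.97 and 49.1 CPM, and replicate 4 was lowest in both the markers and *Bcl2*. Other libraries did not follow that order. KO/GFP replicate 2, highest in the markers, had less *Bcl2* than replicate 1, and uninjected WT replicate 1, at 469 CPM of the markers, had the lowest *Bcl2* level of the WT hearts. They summed to 339 to 433 CPM in WT/GFP and to 298 to 338 CPM in KO/aYAP hearts. The part of dividing cells in the *Bcl2* result was not tested.

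**Figure D3:**
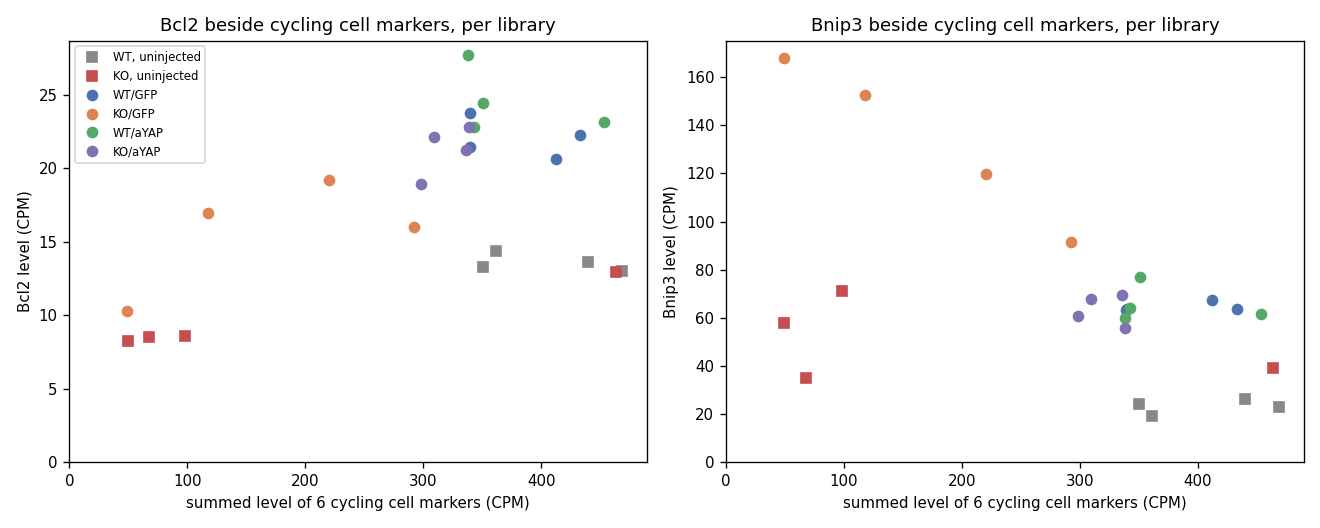
Level of Bcl2 (left) and Bnip3 (right) in CPM against the summed level of 6 cycling cell markers in CPM, 1 point per library, squares uninjected and circles injected. Uninjected KO replicate 4, at 463 CPM of cycling markers, has a Bcl2 level of 12.9 CPM beside the WT libraries, and KO/GFP replicate 4, at 49.1 CPM, has the lowest Bcl2 and the highest Bnip3 level of the injected hearts.

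*Bcl2l1* (ENSMUSG00000007659, chromosome 2 from 152780668 to 152831728) encodes BCL-XL, the guardian prominent in differentiated cells, and by splicing a shorter form that favours death, which gene-level values do not separate. Its level was 19.5, 23.4, 24.7 and 24.1 CPM in uninjected WT and 38.4, 37.8, 32.3 and 32.8 CPM in KO hearts. All 4 KO libraries were above all 4 WT libraries. The difference was 0.60 (SE 0.114, adjusted p = 0.0163), a 1.52-fold change on the scale of CPM + 1. The adjusted p-value rose to 0.0595, 0.0553 and 0.0566 without WT replicate 1, WT replicate 2 or KO replicate 2. With the GFP vector its level reached 20.7, 18.4, 29.8 and 32.2 CPM in WT and 46.3, 39.6, 53.1 and 48.0 CPM in KO hearts. The groups were again apart, although the WT/GFP libraries fell into a low and a high pair, and the difference was 0.89 (SE 0.253, adjusted p = 0.0269). It was not called without WT/GFP replicate 1 or 2 or KO/GFP replicate 1, 3 or 4, with adjusted p-values of 0.0575 to 0.0891 and differences of 0.76 to 0.89. In KO/aYAP hearts the level was 30.1, 29.7, 21.3 and 37.4 CPM, below every KO/GFP library. That difference of -0.66 (SE 0.253) had an adjusted p of 0.0915 and was called only in the fit restricted to the 8 libraries compared (adjusted p = 0.0364). In WT/aYAP hearts it was at 15.0, 35.2, 36.4 and 37.3 CPM, replicate 1 being far below the others.

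*Mcl1* (ENSMUSG00000038612, chromosome 3 from 95658788 to 95663176) encodes a short-lived guardian on which cardiomyocytes are known to depend. Its level was 161, 162, 134 and 157 CPM in uninjected WT and 189, 208, 207 and 189.7 CPM in KO hearts, with no overlap. The difference of 0.37 (SE 0.0949) had an adjusted p of 0.0504. It was called without KO replicate 1 (0.39, adjusted p = 0.0259) or KO replicate 4 (0.39, adjusted p = 0.0406), in DESeq2 (adjusted p = 0.0021), with median-ratio scaling (0.0455) and with the *Ddx3y* covariate (0.0417). With the GFP vector *Mcl1* had 199.9, 209, 195 and 182 CPM in WT and 288, 236, 289.9 and 283 CPM in KO hearts. Every KO/GFP library was higher, replicate 2 by the least, and the difference was 0.48 (SE 0.0863, adjusted p = 0.00197). The call held in each of the 8 fits that left out 1 library. In KO/aYAP hearts *Mcl1* was at 202, 206, 215 and 204 CPM. These lay below every KO/GFP library, and the 4 values spanned a narrower range than in any other injected group. The difference from KO/GFP was -0.40 (adjusted p = 0.00532) and was called in each of 8 such fits. On plain totals, where the median of all genes stood at 0.13, it was -0.27 with an adjusted p of 0.0671.

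The pore formers were not called in any comparison in limma. *Bax* (ENSMUSG00000003873, chromosome 7 from 45461697 to 45466898) was at 21.7 to 27.0 CPM in uninjected WT and 26.5 to 37.6 CPM in KO hearts, ranges that met at their edges (difference 0.33, SE 0.134, adjusted p = 0.182). With the GFP vector it had 45.3, 34.9, 42.2 and 27.1 CPM in WT and 41.2, 74.6, 53.5 and 33.3 CPM in KO hearts. The spread among KO/GFP libraries was wide and the groups overlapped (difference 0.39, SE 0.212, adjusted p = 0.249). In KO/aYAP hearts *Bax* was at 29.7, 30.7, 40.4 and 32.7 CPM (difference from KO/GFP -0.53, SE 0.212, adjusted p = 0.102). That comparison was called in DESeq2 (adjusted p = 0.0412) and, in limma, without KO/GFP replicate 4 (-0.71, adjusted p = 0.0354). Without KO/GFP replicate 2 it shrank to -0.33 (adjusted p = 0.26 in limma). The difference between KO/GFP and WT/GFP shrank to 0.19 (adjusted p = 0.547) in the same fit. In WT/aYAP hearts *Bax* was at 37.6 to 56.1 CPM. *Bak1* (ENSMUSG00000057789, chromosome 17 from 27019810 to 27029009) had the opposite sign to *Bax* in each of the 3 comparisons, with differences of -0.11 (SE 0.149), -0.33 (SE 0.219) and 0.32 (SE 0.219) and adjusted p-values of 0.721, 0.351 and 0.343. It was at 31.1 to 40.5 CPM in uninjected WT and 28.8 to 43.9 CPM in KO hearts, at 24.6 to 33.6 CPM in WT/GFP, 14.1 to 32.8 in KO/GFP, 20.2 to 31.6 in WT/aYAP and 23.2 to 33.7 CPM in KO/aYAP hearts. These ranges overlapped in every comparison. Its lowest library was KO/GFP replicate 2 at 14.1 CPM, the library with the highest *Bax* level. Without that library the injected *Bak1* differences shrank to -0.13 and 0.12. Without uninjected KO replicate 2 the uninjected difference shrank to -0.025.

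The ratio of *Bax* to *Bcl2* CPM within a library, often used as a summary of the balance between death and survival signals, was 1.82 ± 0.156 in uninjected WT hearts (SD, n = 4) and 3.38 ± 0.788 in KO hearts. It was 1.71 ± 0.408 in WT/GFP, 3.28 ± 0.978 in KO/GFP, 1.78 ± 0.204 in WT/aYAP and 1.56 ± 0.147 in KO/aYAP hearts. Each KO library, at 2.52 to 4.43, was above each WT library, at 1.67 to 2.01, and each KO/GFP library, at 2.43 to 4.66, was above every library of the other 3 injected groups, at 1.14 to 2.04. Relative to *Bcl2*, the other guardians *Bcl2l1* and *Mcl1* were also higher in the KO and KO/GFP libraries. The ratio of *Bcl2l1* to *Bcl2* was 3.85 ± 0.910 in KO against 1.69 ± 0.134 in WT hearts and 3.16 ± 1.01 in KO/GFP against 1.14 ± 0.268 in WT/GFP hearts, and that of *Mcl1* to *Bcl2* was 18.6 ± 6.03 in KO/GFP and 9.75 ± 0.651 in KO/aYAP hearts. All these ratios have *Bcl2* as denominator, the guardian that was lower in KO and KO/GFP hearts (log2 differences -0.48 and -0.50). The differences of *Bax*, 0.33 and 0.39, were not called in limma. They were smaller than those of *Bcl2l1* (0.60 and 0.89) and *Mcl1* (0.37 and 0.48). On that scale *Bax* did not rise relative to these other guardians. The share of gene pairs with ratios set apart in this way was not counted. The ratios describe CPM of genes of unequal length and were given no test.

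**Figure D4:**
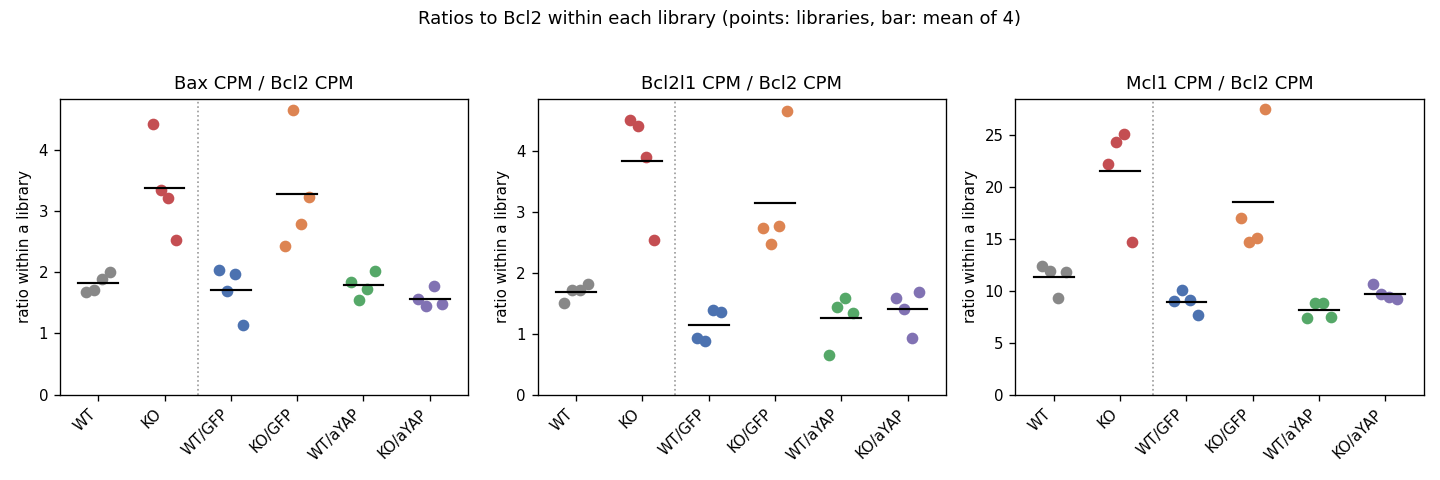
Ratio of the CPM of Bax, Bcl2l1 and Mcl1 to that of Bcl2 within each library, with a bar at the mean of 4 and uninjected groups left of the dotted line. All 3 mean ratios are higher in KO than in WT among uninjected hearts, where Bax to Bcl2 averages 3.38 and 1.82, and higher in KO/GFP, where it averages 3.28, than in the other 3 injected groups, where it averages 1.56 to 1.78.

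Of the 4 BH3-only genes, *Bcl2l11* was called by limma in the comparison of active YAP with GFP in KO hearts and in neither comparison of genotype, though DESeq2 called it between KO/GFP and WT/GFP (adjusted p = 0.028). *Bcl2l11* (ENSMUSG00000027381, chromosome 2 from 128126038 to 128162547) encodes BIM, which binds all the guardians and is a known FOXO target. Its level was 21.9, 26.2, 33.1 and 34.1 CPM in WT/GFP, 53.1, 29.2, 44.8 and 55.6 CPM in KO/GFP and 21.03, 21.2, 23.96 and 32.9 CPM in KO/aYAP hearts. KO/GFP replicate 2 lay among the WT/GFP libraries, and the other 3 were above them. The difference between KO/GFP and WT/GFP was 0.63 (SE 0.220, adjusted p = 0.0692). Without KO/GFP replicate 2 it was 0.82 with an adjusted p of 0.0108. The difference between KO/aYAP and KO/GFP was -0.84 (SE 0.220, adjusted p = 0.017), although 1 KO/aYAP library was above the lowest KO/GFP library. It was not called without KO/GFP replicate 1 or 4 or KO/aYAP replicate 1 or 2, with adjusted p-values of 0.0519 to 0.0566. In uninjected hearts it was at 36.8 to 60.3 CPM in WT and 45.9 to 71.98 CPM in KO (difference 0.26, SE 0.182, adjusted p = 0.462).

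*Bid* (ENSMUSG00000004446, chromosome 6 from 120891930 to 120916853), whose product links death receptors to mitochondria once cleaved, was at 1.96, 2.05, 2.07 and 2.14 CPM in uninjected WT and 1.12, 1.19, 1.15 and 1.60 CPM in KO hearts. The groups were apart, with KO replicate 4 nearest to WT as it was for *Bcl2*, and the difference was -0.44 (SE 0.111, adjusted p = 0.0504). It was called without KO replicate 1 (-0.41, adjusted p = 0.0459) or KO replicate 4 (-0.51, adjusted p = 0.0126), with no filter on low values (0.0497), without the limma trend (0.0404), on plain totals (0.0225) and with the *Ddx3y* covariate (0.0182). At these levels the pseudocount of 1 shrinks the fold change, and DESeq2 on recovered reads gave -0.69 (adjusted p = 0.0497). In injected hearts *Bid* was at 7.29 to 9.26 CPM in WT/GFP, 7.49 to 8.50 in KO/GFP, 6.45 to 8.53 in WT/aYAP and 6.18 to 7.42 CPM in KO/aYAP, and no difference was called (KO/GFP against WT/GFP -0.10, SE 0.116, adjusted p = 0.642). *Bbc3* (ENSMUSG00000002083, chromosome 7 from 16308393 to 16318205) encodes PUMA, a target of p53. Its level was 6.04, 5.58, 7.28 and 6.63 CPM in WT/GFP and 8.69, 10.5, 12.1 and 6.72 CPM in KO/GFP hearts, where replicate 4 fell into the WT/GFP range (difference 0.48, SE 0.198, adjusted p = 0.12). In uninjected hearts the difference had the other sign, -0.27 (SE 0.144, adjusted p = 0.317), with 3.47 to 4.41 CPM in WT and 2.53 to 4.08 CPM in KO. With active YAP it was at 6.57 to 11.2 CPM in WT and 4.74 to 8.98 CPM in KO hearts. *Bad* (ENSMUSG00000024959, chromosome 19 from 6941861 to 6951899), whose product is held inactive by phosphorylation downstream of growth factors, differed by 0.13 (SE 0.143), 0.02 (SE 0.164) and -0.15 (SE 0.164) in the 3 comparisons, with adjusted p-values of 0.663, 0.967 and 0.568. Its levels were 12.6 to 15.5 CPM in uninjected WT, 12.9 to 20.1 in KO, 16.1 to 21.8 in WT/GFP, 16.4 to 24.3 in KO/GFP, 13.8 to 21.3 in WT/aYAP and 13.8 to 20.8 CPM in KO/aYAP hearts, and all comparisons overlapped. The first and the second difference took the other sign on plain totals, -0.0055 and -0.091.

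*Bnip3* (ENSMUSG00000078566, chromosome 7 from 138890836 to 138909519), the mitophagy receptor, had the largest difference of the 10 genes in each of the 3 comparisons. It was at 23.1, 26.4, 19.4 and 24.2 CPM in uninjected WT and 35.1, 71.1, 57.7 and 39.3 CPM in KO hearts. All KO libraries were above all WT libraries but differed among themselves by more than the gap to WT. The difference was 1.04 (SE 0.218, adjusted p = 0.0253), and it was not called without any 1 of the 4 WT libraries or KO replicate 3, with adjusted p-values of 0.0562 to 0.084 and differences of 0.96 to 1.11. With the GFP vector *Bnip3* had 63.8, 67.5, 63.2 and 63.9 CPM in WT and 153, 91.7, 119.8 and 168 CPM in KO hearts. The WT/GFP libraries lay close together and each KO/GFP library was well above them, for a difference of 0.99 (SE 0.146, adjusted p = 4.3e-04) or 1.99-fold. In KO/aYAP hearts *Bnip3* was at 60.9, 69.3, 56.0 and 67.9 CPM and in WT/aYAP hearts at 61.4, 76.9, 64.2 and 59.9 CPM. The range of each of these groups spanned the WT/GFP values. The difference between KO/aYAP and KO/GFP was -1.02 (SE 0.146, adjusted p = 3.2e-04), and both injected calls held in each of their 8 fits that left out 1 library. KO/GFP replicate 2 was the lowest KO/GFP library for *Bnip3*, *Mcl1*, *Bcl2l1* and *Bcl2l11* and the highest for *Bax* and the cycling markers. It was also low in *Ddx3y*, at 0.588 CPM against 68.1, 51.6 and 66.9 CPM in replicates 1, 3 and 4. With the *Ddx3y* covariate the adjusted p of *Bnip3* was 3.7e-04 for KO/GFP against WT/GFP and 4.1e-04 for KO/aYAP against KO/GFP. *Bnip3l*, the closest relative of *Bnip3*, differed by 0.24 (adjusted p = 0.283), 0.08 (adjusted p = 0.713) and -0.37 (adjusted p = 0.0355) in the 3 comparisons.

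**Figure D5:**
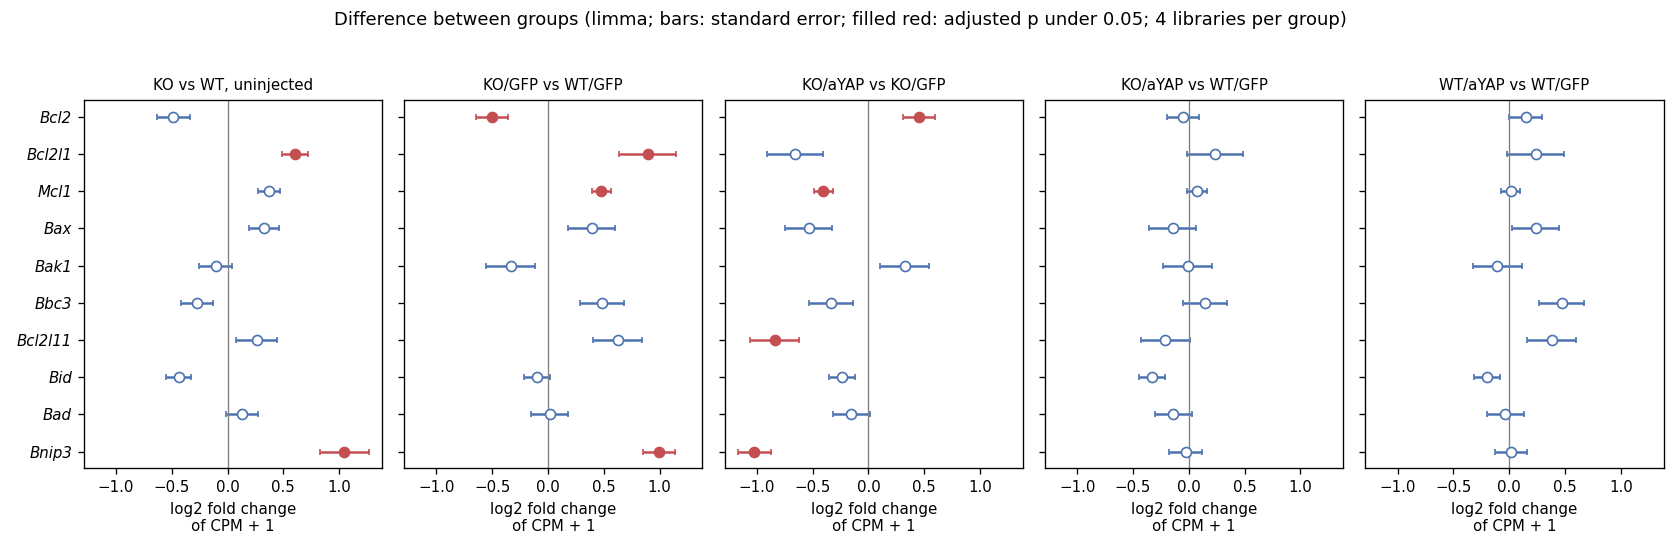
Log2 fold change of CPM + 1 for each gene in 5 comparisons from limma, with bars for the standard error and filled red points for an adjusted p under 0.05. Bnip3 lies at 1.04, 0.99 and -1.02 in the first 3 panels and at -0.03 and 0.02 in the last 2, where no gene is filled.

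KO/aYAP hearts were also set beside WT/GFP hearts. In limma 0 of the 10 genes were called, against 0.0206% of all genes (3 of 14597), and 1 gene, *Bid*, had an unadjusted p under 0.05 (difference -0.33, SE 0.116, adjusted p = 0.721), as 888 of all genes did. edgeR and DESeq2 also called 0 of the 10. The differences of *Bcl2* (-0.05, SE 0.144), *Mcl1* (0.07, SE 0.0863) and *Bnip3* (-0.03, SE 0.146) were each smaller than their standard errors, and that of *Bcl2l1* was 0.23 (SE 0.253). In WT hearts active YAP against GFP likewise gave 0 calls in limma, edgeR and DESeq2 among the 10, against 0% of all genes, with *Bbc3* alone at an unadjusted p under 0.05 (0.47, SE 0.198, adjusted p = 0.703) beside 1011 of all genes. Between KO/aYAP and WT/aYAP hearts the same 3 tools called 0 of the 10, against 0.0411% of all genes in limma, and *Bcl2l11* alone had an unadjusted p under 0.05 (-0.59, SE 0.220, adjusted p = 0.346) beside 1627 of all genes. No gene of the 10 had groups without overlap in these 3 comparisons, against 4.45%, 4.32% and 9.23% of all genes.

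The effect of active YAP was then compared between the genotypes, as its log2 fold change in KO hearts minus that in WT hearts. It differed for 3 of the 10 genes, against 7.56% of all genes (1104 of 14597), and was more negative in KO hearts for each of the 3. These were *Bnip3* (-1.04, SE 0.207, adjusted p = 0.00778), *Bcl2l11* (-1.22, SE 0.310, adjusted p = 0.0276) and *Mcl1* (-0.42, SE 0.122, adjusted p = 0.0484). In WT hearts the same vector gave 0.02 for *Bnip3*, 0.38 for *Bcl2l11* and 0.01 for *Mcl1*. In those WT/aYAP hearts *Bcl2l11* was at 35.2, 52.0, 27.2 and 38.3 CPM, *Mcl1* at 171, 216.8, 200.5 and 206 CPM and *Bcl2* at 23.1, 24.4, 22.8 and 27.7 CPM, ranges that each overlapped WT/GFP. *Bnip3* was called in each of 16 fits that left out 1 library, *Bcl2l11* in 8 of 16 and *Mcl1* in 2 of 16. *Bcl2l11* lost the call without WT/GFP replicate 1 or 2, KO/GFP replicate 1 or 4, WT/aYAP replicate 2 or 4 or KO/aYAP replicate 1 or 2 (adjusted p = 0.0515 to 0.0589). *Mcl1* kept it only without KO/GFP replicate 2 or WT/aYAP replicate 1, and had adjusted p-values of 0.0631 to 0.1 otherwise. With all libraries its call was also lost on plain totals (adjusted p = 0.197), without the limma trend (0.0793) and with the *Ddx3y* covariate (0.0666). Without WT/aYAP replicate 1, *Bcl2l1* (-1.20, adjusted p = 0.0156) and *Bbc3* (-0.95, adjusted p = 0.0458) were called as well. With all libraries these stood at -0.89 (adjusted p = 0.138) and -0.81 (adjusted p = 0.09), and *Bcl2* at 0.31 (adjusted p = 0.381) in limma, while DESeq2 called *Bbc3* with all libraries (adjusted p = 0.0427).

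Other genes of the pathway were counted in the same 3 comparisons, in which limma called 504 of all 15598 genes higher and 540 lower, then 939 of 14597 higher and 1054 lower, then 1146 of 14597 higher and 1010 lower. Of 15 further BCL2 relatives, 7 were tested, and 0 were called between uninjected KO and WT hearts. *Bmf*, a BH3-only gene, rose in KO/GFP against WT/GFP hearts (0.76, adjusted p = 0.0497) and fell with active YAP in KO hearts (-0.95, adjusted p = 0.0167), together with *Bnip3l*. The median differences of the 7 were 0.15, 0.12 and 0.01 in the 3 comparisons. *Pmaip1*, a BH3-only gene that is also in the primer list below, was too low in injected hearts to be tested. It was at 0.217 to 1.26 CPM in WT/GFP, 1.74 to 2.63 in KO/GFP, 0.593 to 1.63 in WT/aYAP and 0.229 to 0.801 CPM in KO/aYAP. *Hrk* and *Bcl2a1b* were also listed but untested there, and their KO/GFP and WT/GFP ranges overlapped. In a list of 20 genes for the apoptosome, the caspases and their inhibitors, 0 were called higher and 1 lower in uninjected KO hearts, and 1 was called higher and 2 lower in KO/GFP against WT/GFP hearts. Among the latter, the adaptor *Fadd* fell (-0.43, adjusted p = 0.0395) and the nuclease *Dffb* rose (0.58, adjusted p = 0.0424). None of the 20 was called between KO/aYAP and KO/GFP hearts in limma, and the list's medians were -0.12, -0.21 and 0.06. A list of 7 apoptosis genes for which the study had primers, 6 of them tested, was chosen by the study in these hearts and is not independent evidence of its direction. It gave 1 call higher in uninjected KO (*Fas*, the death receptor, 0.73, adjusted p = 0.0401), then *Fas* (0.84, adjusted p = 0.00656) and *Mdm2* (0.35, adjusted p = 0.0217) higher beside *Bcl2* lower in KO/GFP. With active YAP in KO hearts *Fas* (-0.77, adjusted p = 0.0103) and *Perp* (-0.31, adjusted p = 0.0394) fell as *Bcl2* rose. Its medians were 0.27, 0.37 and -0.29.

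*Bnip3*, *Bcl2l11* and *Bbc3* also belong to a list of 15 known FOXO targets, and *Bnip3* to 15 tested HIF1 targets and 15 mitophagy genes. Their counts stand beside 3.23%, 6.43% and 7.85% of all genes called higher and 3.46%, 7.22% and 6.92% called lower in the 3 comparisons. Among FOXO targets, 3 were called higher in uninjected KO hearts, namely *Bnip3*, *Cited2* (1.14, adjusted p = 0.00789) and *Foxo3* itself (0.77, adjusted p = 0.0365). In KO/GFP hearts 6 of 15 were higher and 0 lower, led by *Txnip* (1.10, adjusted p = 0.00307), *Foxo3* (1.01, adjusted p = 0.00377), *Bnip3* and *Sesn1* (0.94, adjusted p = 0.00763). With active YAP in KO hearts 7 of 15 were lower and 0 higher, led by *Bnip3*, *Cited2* (-0.98, adjusted p = 0.0266), *Sesn1* (-0.96, adjusted p = 0.00629) and *Bcl2l11*. The list's medians were 0.26, 0.63 and -0.50. Among HIF1 targets, 3, 4 and 0 genes were called higher and 0, 0 and 5 lower in the 3 comparisons. The first of these by size was *Ddit4*, an inhibitor of mTOR signalling, at 2.06 (adjusted p = 0.0132), 1.5 (adjusted p = 0.00853) and -1.31 (adjusted p = 0.0175). The glucose transporter gene *Slc2a1* followed *Bnip3*'s direction at 0.66 (adjusted p = 0.0105), 0.53 (adjusted p = 0.0381) and -0.68 (adjusted p = 0.00924), and the medians were 0.24, 0.17 and -0.32. Of the mitophagy genes, *Bnip3* was the only one called in limma in uninjected hearts. In KO/GFP hearts the cargo receptor *Sqstm1* (0.55, adjusted p = 0.00252) and *Map1lc3a* (0.25, adjusted p = 0.0421) were also higher. With active YAP in KO hearts 5 of 15 were lower and 0 higher, led by *Bnip3*, *Sqstm1* (-0.42, adjusted p = 0.0117), *Bnip3l* and the inner membrane receptor *Phb2* (-0.36, adjusted p = 0.00967), and the medians were 0.24, 0.12 and -0.12. These lists overlap, so their counts share genes.

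The genes whose pattern over the 24 libraries was most like that of a member were sought among 13731 genes tested in both tables, by Pearson's r of log2(CPM + 1) after each table was centred on its own mean. The libraries share their groups, r was not split into parts between and within groups, and it is a description. For *Bnip3* these were *Glul* (r = 0.964), *Pik3r1* (r = 0.964) and *Cd36* (r = 0.96), which encode glutamine synthetase, a regulatory subunit of PI3-kinase and a fatty acid transporter. *Pik3r1* (r = 0.912) was also among the 3 genes most like *Mcl1*, after *Fam107a* (r = 0.934) and *Amigo2* (r = 0.919). For *Bcl2* they were *Pid1* (r = 0.957) and the DNA repair and nucleotide supply genes *Rad51ap1* (r = 0.934) and *Rrm2* (r = 0.931). For *Bax* they were *Tspo* (r = 0.912), *Mif* (r = 0.901) and *S100a1* (r = 0.877). For *Bcl2l1* the highest r was 0.838, with *Tspyl2*, and for *Bcl2l11* it was 0.843, with *Bbs2*. *Bid*, *Bak1*, *Bad* and *Bbc3* had a highest r of 0.809, 0.799, 0.819 and 0.772.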

How the data were processed

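RNA-seq was analysed for 24 mouse heart libraries in 6 groups, taken from the labels. Libraries were strand-specific and polyA-selected, with 50 bp single-end reads for the 8 uninjected and 150 bp paired-end reads for the 16 injected hearts. Per the submitters' notes and the methods, the authors used cutadapt 2.3 for trimming, HISAT2 2.1.0 for alignment (GRCm38), StringTie 1.3.4 for transcripts and edgeR 3.26.1 for CPM. The deposited values are a normalized signal, CPM as scaled by the authors, whose columns sum to between 942566 and 1134439. At least 99.9% of the values of each library were whole multiples of the worth of 1 read (tolerance 0.05 read), so reads were recovered for edgeR 4.0.16 and DESeq2 1.42.0. Whether counting used strand is not given in the sources used here, and *Bak1*, *Bid*, *Bad*, *Bnip3* and *Bcl2* overlap genes on the other strand, *Bax*, *Bid* and *Bcl2* genes on the same strand.

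Identifiers were paired with GENCODE M21 symbols (15655 of 15667 and 15314 of 15327). A gene was tested where over 1 CPM was reached in 4 of 8 or 8 of 16 libraries (15598 and 14597 genes), with limma 3.58.1 (trend) on log2(CPM + 1), 1 model per table, Benjamini-Hochberg adjustment and a threshold of 0.05. The fold change of a low gene is understated on this scale. For differential expression the authors name Fisher's exact test. The script was tested on simulated data. Each of the 10 members is named. From other lists at most the 4 largest calls per list and comparison are named, plus *Bnip3l*, and for each member the most similar genes. The members and lists were chosen with earlier results of these data known. The replicate numbers of the labels do not pair the libraries, and p-values set the difference between groups against the spread between libraries. Alternatives were a pseudocount of 0.1, no filter or 5 CPM, median-ratio and total scaling, no trend, a fit of the 8 libraries compared, a replicate block, a *Ddx3y* covariate for sex, edgeR, DESeq2 and leaving out each library. R 4.3.3 and Python 3.11.15 were used. Promoter sequences are RefSeq's (GRCm38.p6), and all 10 members matched. Some results of the other lists are not reported here. Protein sequences were not used here.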

Additional observations from a re-analysis of the deposited data

Results flagged for a closer look

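In 6 of 60 sets of 4 libraries (10 genes in 6 groups), the highest or lowest library stood apart from the other 3 by Dixon's test, where chance gives about 3. *Bcl2* was at 12.9 CPM in uninjected KO replicate 4, against 8.24 to 8.56 CPM in the other KO hearts. *Bid* was at 1.60 CPM in the same library, against 1.12 to 1.19 CPM. *Bcl2l1* was at 15.0 CPM in WT/aYAP replicate 1, against 35.2 to 37.3 CPM. *Mcl1* was at 236 CPM in KO/GFP replicate 2, against 283 to 289.9 CPM. *Bid* was at 7.29 CPM in WT/GFP replicate 4, against 8.97 to 9.26 CPM. *Bnip3* was at 67.5 CPM in WT/GFP replicate 2, against 63.2 to 63.9 CPM. The effect of active YAP differed between KO and WT hearts in limma for *Mcl1* (-0.42 on the log2 scale), *Bcl2l11* (-1.22) and *Bnip3* (-1.04). No cause was tested for any of these.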

How the results depend on the processing

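The 2 calls in uninjected hearts became 4 on plain totals (*Bcl2l1*, *Bnip3*, *Bcl2* and *Bid*), 5 with the *Ddx3y* covariate and 5 in DESeq2 (those 4 and *Mcl1*), 3 with median-ratio scaling (*Mcl1* added), no filter or no trend (*Bid* added), and 0 with a replicate block. Of all 15598 genes, 1594 were called on plain totals and 1054 with median-ratio scaling, against 1044 in the main fit. On plain totals 1241 of the 1594 were lower in KO. The counts of all genes in the remaining settings are not given here, so the counts of members there have no such share beside them. With 1 library left out the calls among members ranged from 0 (without WT replicate 1 or 2) to 5 (without KO replicate 4). The 4 calls of KO/GFP against WT/GFP ranged from 2 to 5 with 1 library left out, the 4 of KO/aYAP against KO/GFP from 2 to 4, and the 3 of the difference between genotypes from 1 to 5. The replicate block gave 3, 3 and 2 calls in these, without *Bcl2* (adjusted p = 0.0546 and 0.0765) and, in the last, without *Mcl1* (0.0901). Same-numbered libraries did not deviate together (correlations of -0.19 to 0.14), so the numbers do not pair them. Signs that turned belong to differences near 0 that were never called. On plain totals *Bad* turned to -0.0055 in uninjected KO hearts and -0.091 in KO/GFP, *Bak1* to 0.0085 for KO/aYAP against WT/GFP, *Bcl2l1* to 0.0050 for KO/aYAP against WT/aYAP and *Bid* to 0.067 for the difference between genotypes. A pseudocount of 0.1 gave 3.5e-05 for that *Bcl2l1* difference. With the *Ddx3y* covariate *Bak1* and *Bnip3* turned to 0.026 and 0.0049 for KO/aYAP against WT/GFP, *Mcl1* and *Bnip3* to -0.00092 and -0.015 for WT/aYAP against WT/GFP, and *Bnip3* to 0.020 for KO/aYAP against WT/aYAP. The cause was not tested. With 1 library left out, the ranges that crossed 0 were, for KO/GFP against WT/GFP, -0.091 to 0.089 for *Bad*. For KO/aYAP against WT/GFP they were -0.082 to 0.0034 for *Bcl2*, -0.095 to 0.078 for *Bak1* and -0.071 to 0.030 for *Bnip3*. For WT/aYAP against WT/GFP they were -0.031 to 0.082 for *Mcl1*, -0.19 to 0.015 for *Bak1*, -0.11 to 0.099 for *Bad* and -0.062 to 0.057 for *Bnip3*. For KO/aYAP against WT/aYAP they were -0.31 to 0.14 for *Bcl2l1*, -0.0083 to 0.10 for *Mcl1*, -0.024 to 0.18 for *Bak1* and -0.087 to 0.034 for *Bnip3*, and for the difference between genotypes -0.095 to 0.035 for *Bid*. No called value changed sign under any alternative.
Values of 1 to 3 CPM rest on few reads, as for *Bid* in uninjected hearts.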
